A study of Mus musculus with 6 samples.

Results

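Immediate early response genes were compared between hearts of 3 wild-type mice and 3 Cenpf knockout mice, all 12 months old, with 1 Affymetrix mouse gene array per heart. No treatment is named in the labels. The members were a list of 38 genes, each read from the probe that the array annotation pairs with that gene symbol alone, and all 38 were measured, out of 19938 genes named in this way. Where a gene had more than 1 such probe, as only Socs3 did, the probe with the highest mean was used. Centromere protein F, the product of Cenpf, binds microtubules. The series asks how knockout hearts differ from wild-type hearts. The sources used here do not give the strain, the sex, the hour of collection, the part of Cenpf that was deleted or the heart cells that carried the deletion.

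Immediate early genes are transcribed within minutes of a stimulus, from factors that are already present in the cell, such as the serum response factor with its partners and the cyclic AMP response element binding protein CREB. Many of their products are transcription factors of the AP-1, Egr, Nr4a and Klf families, which in turn regulate later genes. Others, such as the Dusp phosphatases and Zfp36, act back on the signal or on the messages and limit the response. In heart they are known to respond to stretch, pressure load and adrenergic stimulation.

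Values are on the log2 scale of the deposited table, so that 1 unit is a doubling, and a difference is always knockout minus wild-type. A background level of 6.35, the 95th percentile of the means of 1205 olfactory and vomeronasal receptor probes, stood for genes taken as silent in heart, and the means of all 38 members over the 6 arrays lay above it. The Cenpf probe read 8.75, 8.54 and 8.04 in wild-type and 6.35, 6.10 and 6.68 in knockout hearts (limma, adjusted p = 0.0286), so the labels and this probe go the same way. That call was lost when any single array but wild-type replicate 3 was left out (adjusted p from 0.0689 to 0.198). The 8 ventricular cardiomyocyte markers were far above the background level in every heart, with Myh6 between 13.41 and 13.74. Array medians over all probes lay between 6.92 and 6.97. Over all genes, wild-type replicate 3 correlated best with knockout replicate 2 and not with another wild-type heart. Some results are therefore also given without it. Since it was picked for lying near a knockout heart, leaving it out favours wider differences, so values without it are descriptions only.

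Promoters of some of the members that the results turn on are printed first, since CREB and the serum response factor act through short elements close to the start site. RefSeq promoter windows of GRCm38.p6, 250 bases before to 50 after the start of a gene, matched 30 of the 38 members, with 39 windows in all. The 8 without a window were Egr1, Egr3, Sik1, Ier2, Myc, Arc, Fosl1 and Klf10, and they enter none of the element counts. Shown are the 3 Nr4a genes, Fos and Atf3 of the AP-1 group, Dusp1 beside its relative Dusp5, Btg2, and Gadd45g, the member that was lower in every knockout heart. Each run gives the 250 bases before the start, 5′ to 3′ on the strand of the gene. The windows are Nr4a1 from chr15:101266596-101266845 on the plus strand, Nr4a2 from chr2:57124004-57124253 on the minus strand, Nr4a3 from chr4:48045055-48045304 on the plus strand, Fos from chr12:85473640-85473889 on the plus strand and Atf3 from chr1:191183334-191183583 on the minus strand. The others are Dusp1 from chr17:26508473-26508722 on the minus strand, Dusp5 from chr19:53528895-53529144 on the plus strand, Btg2 from chr1:134079156-134079405 on the minus strand and Gadd45g from chr13:51846425-51846674 on the plus strand. Capitals mark matches, on either strand, to the elements named after the sequences.
Nr4a1: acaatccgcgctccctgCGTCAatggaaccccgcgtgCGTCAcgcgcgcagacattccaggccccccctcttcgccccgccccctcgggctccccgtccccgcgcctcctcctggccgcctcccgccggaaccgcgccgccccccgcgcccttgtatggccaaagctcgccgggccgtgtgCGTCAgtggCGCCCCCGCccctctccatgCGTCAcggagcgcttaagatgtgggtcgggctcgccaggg
Nr4a2: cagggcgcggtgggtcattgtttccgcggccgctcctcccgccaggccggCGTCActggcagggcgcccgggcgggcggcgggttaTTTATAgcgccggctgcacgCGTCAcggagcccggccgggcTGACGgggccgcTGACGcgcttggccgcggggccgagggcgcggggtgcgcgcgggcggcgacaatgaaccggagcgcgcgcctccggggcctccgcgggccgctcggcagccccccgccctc
Nr4a3: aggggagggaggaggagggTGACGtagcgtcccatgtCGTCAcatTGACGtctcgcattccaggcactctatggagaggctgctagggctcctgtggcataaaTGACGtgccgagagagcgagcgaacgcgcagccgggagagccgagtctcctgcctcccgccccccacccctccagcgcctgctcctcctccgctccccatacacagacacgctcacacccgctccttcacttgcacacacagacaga
Fos: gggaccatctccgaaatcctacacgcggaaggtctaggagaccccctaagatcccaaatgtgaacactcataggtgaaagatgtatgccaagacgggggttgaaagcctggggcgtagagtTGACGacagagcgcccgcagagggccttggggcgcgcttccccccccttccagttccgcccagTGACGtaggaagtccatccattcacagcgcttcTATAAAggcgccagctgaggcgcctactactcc
Atf3: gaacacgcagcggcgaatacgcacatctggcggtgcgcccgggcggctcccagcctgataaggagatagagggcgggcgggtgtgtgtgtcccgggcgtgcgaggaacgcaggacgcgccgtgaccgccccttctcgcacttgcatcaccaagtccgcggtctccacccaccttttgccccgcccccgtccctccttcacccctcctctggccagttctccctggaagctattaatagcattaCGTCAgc
Dusp1: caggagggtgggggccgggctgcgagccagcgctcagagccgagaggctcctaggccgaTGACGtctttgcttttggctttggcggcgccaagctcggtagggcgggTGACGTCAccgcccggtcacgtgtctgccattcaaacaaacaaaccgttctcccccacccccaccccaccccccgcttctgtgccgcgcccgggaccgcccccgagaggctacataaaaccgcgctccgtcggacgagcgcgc
Dusp5: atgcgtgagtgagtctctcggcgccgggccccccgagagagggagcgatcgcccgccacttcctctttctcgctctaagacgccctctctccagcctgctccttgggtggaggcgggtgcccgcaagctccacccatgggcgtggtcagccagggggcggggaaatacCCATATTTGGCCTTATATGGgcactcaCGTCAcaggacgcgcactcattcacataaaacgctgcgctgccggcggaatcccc
Btg2: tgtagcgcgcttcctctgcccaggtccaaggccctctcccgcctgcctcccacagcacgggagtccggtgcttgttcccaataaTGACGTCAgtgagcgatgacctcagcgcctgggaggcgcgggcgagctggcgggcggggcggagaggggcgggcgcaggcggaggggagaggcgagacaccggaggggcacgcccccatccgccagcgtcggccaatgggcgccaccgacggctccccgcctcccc
Gadd45g: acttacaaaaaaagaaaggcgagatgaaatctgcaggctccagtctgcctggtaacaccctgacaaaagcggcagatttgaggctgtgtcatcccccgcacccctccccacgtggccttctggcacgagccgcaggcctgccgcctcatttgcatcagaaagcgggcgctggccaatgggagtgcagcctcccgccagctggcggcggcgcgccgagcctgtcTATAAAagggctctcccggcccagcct

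The elements searched on both strands were the CArG box of the serum response factor, the cyclic AMP response element TGACGTCA, the AP-1 element TGANTCA, the Egr elements GCGTGGGCG and GCGGGGGCG, the Nr4a element AAAGGTCA and the TATA box TATAAA. The short element TGACG, one side of the full one, which CREB also binds, was added after the sequences had been seen. A full TGACGTCA holds a pair of overlapping short elements, 1 on each strand. At least 1 short element lay in 25 of the 39 member windows (64.1%), against 25.0% of the 19177 windows of genes on the array and 20.8% of all 32851 windows. The windows of Nr4a1, Nr4a2 and Nr4a3 held 4 each, a number that 0.231% of all windows reach. In Dusp1 there were 3. Fos, Btg2, Rgs2 and Egr4 held 2 each, with differences of 0.56, 0.91, -0.42 and -0.02. Egr2, Maff and Csrnp1 have more than 1 window each, with at most 2 short elements in a window, and differences of 0.26, 0.20 and 0.38. No short element lay in the windows of Jun, Fosl2, Zfp36 and Gadd45g, with differences of 0.63, 0.44, 0.43 and -0.64 and groups that did not overlap. Nor was it found in Ier5, Jund, Gadd45b, Dusp6, Klf6, Ier3 and Socs3, whose groups overlapped. The differences of these were -0.04, 0.05, -0.28, 0.17, 0.15, 0.09 and 0.07. The other matched members held 1 each. Whether the number of short elements goes with the difference was not tested. The full element lay in Dusp1, Btg2 and Maff, in 7.69% of member windows against 1.79% of all windows and 2.37% of those of genes on the array.

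CArG boxes were found in 6 member windows (15.4%, against 1.63% of all windows), belonging to Dusp5, Egr2 and Zfp36. Dusp5 has 2 of them side by side. An Egr element lay in 9 member windows (23.1%, against 3.47%), namely Dusp2, Fosb, Fosl2, Klf2, Klf4, Maff, Nr4a1, Socs3 and Zfp36. The AP-1 element was found in 1 member window, of Csrnp1 (2.56%, against 7.81%), and the Nr4a element in 0 (against 1.51%). TATA boxes were held by 15.4% of member windows and 13.6% of all windows. Member windows are rich in G and C, with a median of 63.7% against 52.7% in all windows and 57.3% for genes on the array, and the part of this in the shares above was not tested. A match is a description of these letters and not evidence of binding, and a missing match says only that the letters are not in this window.

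Across the list, levels in knockout hearts were mostly the higher ones. In mean, 30 of the 38 members were higher and 8 lower in knockout hearts, while 48.4% of all genes were higher. The median difference was 0.27, against -0.01 over all genes, and the members ranged from -0.64 for Gadd45g to 1.74 for Nr4a1. In 14 members every knockout value lay above every wild-type value, where 7.5% of all genes did so and 9.17% of the genes with a mean above the background level. The opposite held for 1 member, Gadd45g, against 7.33% of all genes. By limma, 0 of the 38 members passed an adjusted p under 0.05, with adjusted p from 0.110 to 0.968, where 0.0301% of all genes and 6 of all 21789 probes (0.0275%) passed. At an unadjusted p under 0.05 there were 17 members higher and 2 lower, against 4.67% and 5.02% of all genes. Without wild-type replicate 3, 5 members passed the adjusted threshold, Nr4a1, Egr1, Jun and Dusp1 higher and Gadd45g lower, where 293 of the 21789 probes (1.34%) passed. Without knockout replicate 1 the only member to pass was Nr4a1, among 6 probes (0.0275%). With each of the other arrays left out, 0 members passed, among 1 to 3 of the 21789 probes. Without wild-type replicate 3 the members whose groups did not overlap were 18 higher and 4 lower, against 16% and 17.9% of all genes.

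**Figure D1:**
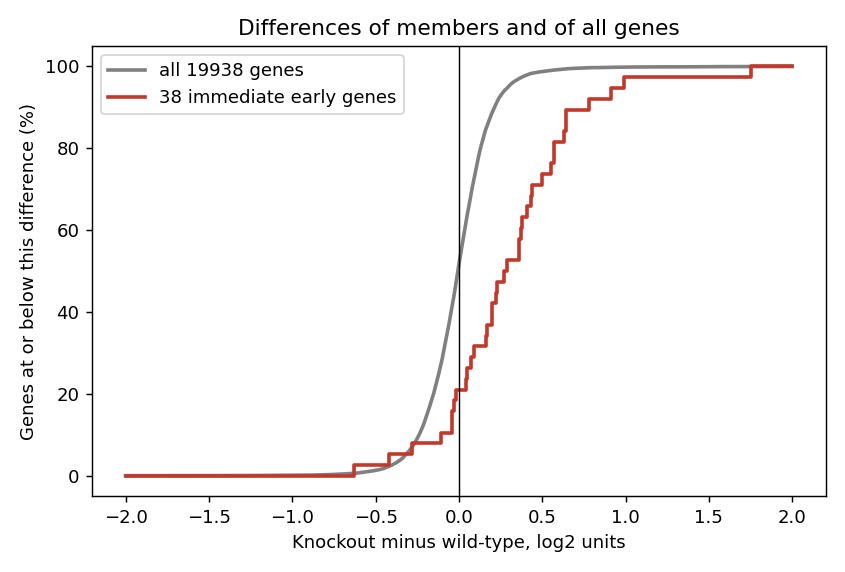
Share of genes (y axis, percent) at or below a given knockout minus wild-type difference (x axis, log2 units) for all 19938 genes (grey) and the 38 immediate early genes (red). The red curve lies to the right of the grey one over most of its course, with a median of 0.27 against -0.01.

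**Figure D2:**
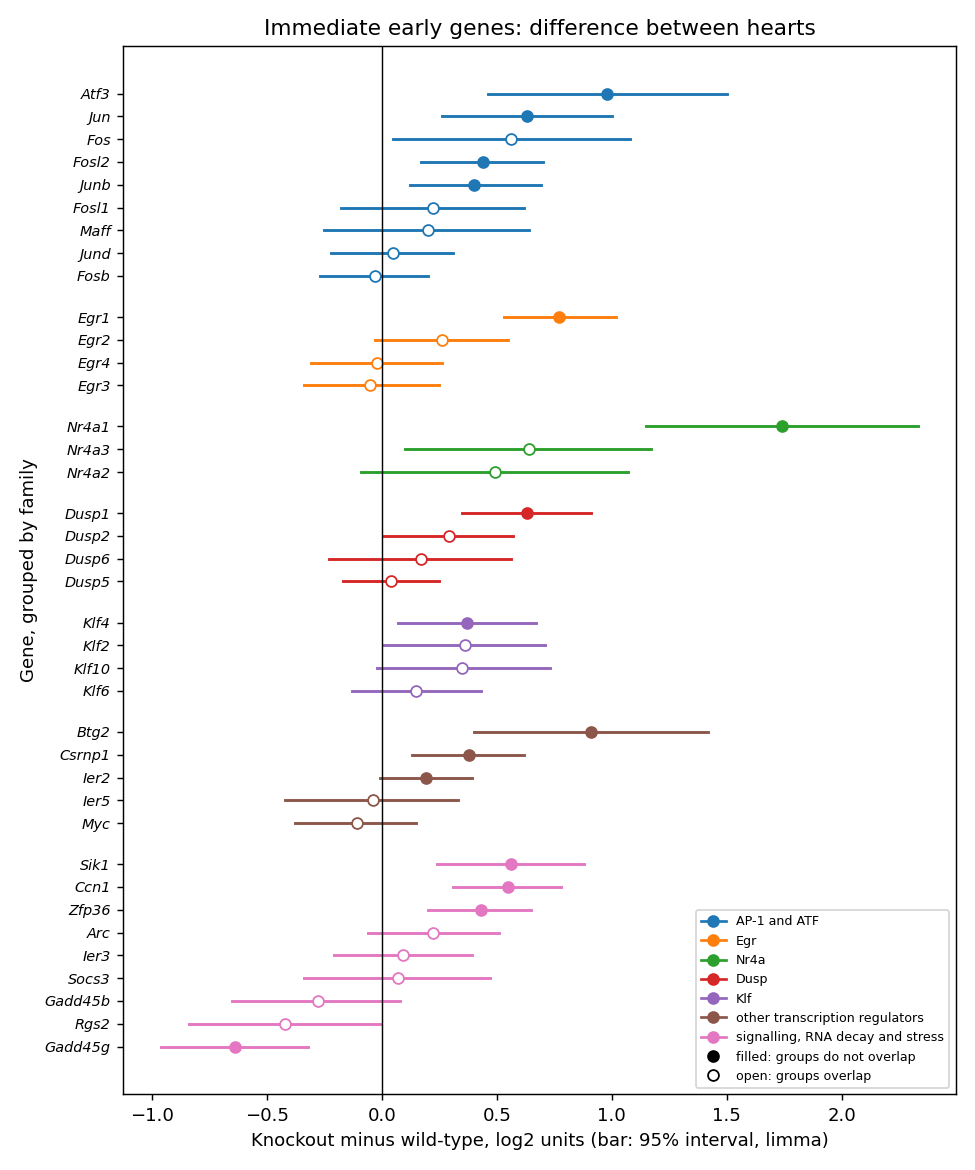
Knockout minus wild-type difference of each of the 38 genes (x axis, log2 units) with its 95% interval from limma, grouped by family (colours); filled points mark the 15 genes whose groups do not overlap. Nr4a1 stands farthest to the right at 1.74 and Gadd45g farthest to the left at -0.64.

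The Nr4a family, orphan nuclear receptors whose activity is set by how much of them is made, held the member with the widest gap. Nr4a1 (Nur77) read 8.36, 8.32 and 8.83 in wild-type and 9.63, 10.62 and 10.48 in knockout hearts. All 3 knockout hearts lay at least 0.80 above the highest wild-type heart, and knockout replicate 1 was the lowest of them. The group means were 8.51 ± 0.28 and 10.25 ± 0.54 (SD, n = 3), a difference of 1.74 ± 0.26 (SE), or 3.34-fold (limma, adjusted p = 0.117). It ranks 7 of 19938 genes from the highest difference down. Without knockout replicate 1 the difference was 2.05 (adjusted p = 0.0498) and without wild-type replicate 3 it was 1.90 (adjusted p = 0.0355). With each of the other 4 arrays left out, it was 1.55 to 1.67 with adjusted p from 0.280 to 0.486.

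Nr4a3 (Nor1) read 6.67, 6.64 and 7.31 in wild-type and 7.22, 7.95 and 7.36 in knockout hearts. Wild-type replicate 3 lay above knockout replicate 1, so the groups overlapped, and the difference was 0.64 (95% interval 0.10 to 1.17, limma adjusted p = 0.464). It was 0.42 with knockout replicate 2 left out and 0.85 with wild-type replicate 3 left out. Nr4a2 (Nurr1) read 7.17, 7.64 and 7.84 in wild-type and 7.49, 8.41 and 8.23 in knockout hearts. Here too knockout replicate 1 fell within the wild-type range, and the difference was 0.49 (95% interval -0.09 to 1.07, adjusted p = 0.556). Leaving out wild-type replicate 1 gave 0.30 and leaving out knockout replicate 1 gave 0.77. In all 3 genes wild-type replicate 3 was the highest wild-type heart and knockout replicate 2 the highest knockout heart. The family mean of the hearts, each gene taken relative to its own mean over the 6 hearts, was -0.72, -0.59 and -0.13 in wild-type and -0.01, 0.87 and 0.57 in knockout hearts. Their printed windows share the 4 short elements, at other distances in each.

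Among the 4 Egr zinc finger factors, the groups of Egr1 did not overlap and those of the other three did. Egr1 read 8.57, 8.76 and 8.64 in wild-type and 9.28, 9.51 and 9.49 in knockout hearts, so that the groups were apart by 0.52 and each varied little. The means were 8.66 ± 0.10 and 9.43 ± 0.13 (SD, n = 3), a difference of 0.77 ± 0.11 (SE), or 1.71-fold (limma, adjusted p = 0.110, the smallest of the 38 members). Leaving out wild-type replicate 3 brought the adjusted p to 0.0416, and it ranged from 0.0355 to 0.483 over the 14 alternatives. Egr2 differed by 0.26 (95% interval -0.03 to 0.55), Egr3 by -0.05 (-0.34 to 0.25) and Egr4 by -0.02 (-0.31 to 0.26). Whether Egr1 differs from its relatives in its response was not tested. Nab2, a corepressor that binds Egr1 and is itself an Egr1 target, differed by 0.31 (adjusted p = 0.558).

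The AP-1 group holds the Fos and Jun proteins, which pair to form the AP-1 factor, with the stress factor Atf3 and the small Maf protein Maff. Of its 9 members 8 were higher in mean in knockout hearts, 4 without overlap, and the median difference was 0.40. Atf3 read 7.80, 8.19 and 8.28 in wild-type and 8.59, 9.49 and 9.13 in knockout hearts. Every knockout heart was above every wild-type heart, and the difference was 0.98 ± 0.23 (SE), or 1.98-fold (limma, adjusted p = 0.368). Its size was 0.77 without knockout replicate 2 and 1.22 without knockout replicate 1. Fos read 7.17, 7.14 and 7.54 in wild-type and 7.43, 8.36 and 7.75 in knockout hearts. The groups overlapped, since knockout replicate 1 lay below wild-type replicate 3, and the difference of 0.56 (95% interval 0.05 to 1.08, adjusted p = 0.484) was 0.31 without knockout replicate 2, the highest heart.

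Of the Jun genes, Jun read 9.20, 9.49 and 9.88 in wild-type and 10.19, 10.15 and 10.11 in knockout hearts. The knockout values lay within 0.08 of each other while the wild-type values spread over 0.67. The difference was 0.63 ± 0.16 (SE) (limma, adjusted p = 0.369, and 0.0365 without wild-type replicate 3). With any other array left out, the limma adjusted p of Jun was 0.399 to 0.788. Junb read 7.99, 7.71 and 7.81 in wild-type and 8.05, 8.37 and 8.31 in knockout hearts. Its groups were apart by only 0.05, and the difference was 0.40 (adjusted p = 0.423). Jund, which is made steadily in many cells and reacts little to stimuli, was the brightest member of the group. It read 9.74, 10.02 and 9.74 in wild-type and 9.96, 9.79 and 9.89 in knockout hearts. The groups of Jund overlapped, with a difference of 0.05 (95% interval -0.22 to 0.31).

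Fosl2 read 8.30, 8.40 and 8.21 in wild-type and 8.56, 8.87 and 8.81 in knockout hearts. These groups did not overlap, with a difference of 0.44 (limma, adjusted p = 0.379). Fosl1, Maff and Fosb overlapped between the groups and differed by 0.22, 0.20 and -0.03. The difference of Fosl1 was 0.06 with wild-type replicate 1 left out and 0.36 with knockout replicate 3 left out. Mafk, another small Maf gene outside the list, differed by 0.43 without overlap (adjusted p = 0.391).

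**Figure D3:**
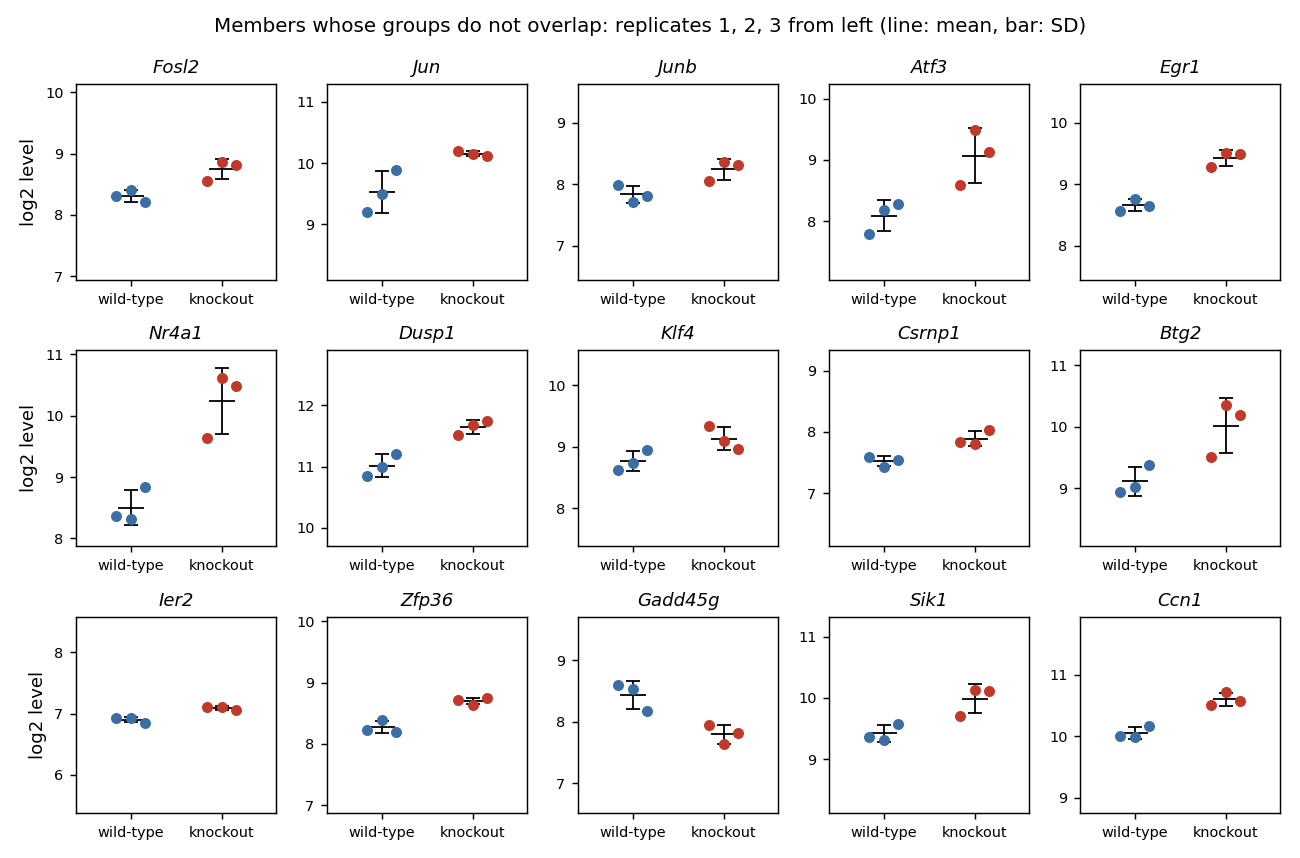
Log2 level (y axis, each panel 3.2 units high) in each heart for the 15 members whose groups do not overlap, wild-type in blue and knockout in red, with replicates 1, 2 and 3 from left, the mean as a line and the SD as a bar. Knockout values lie above wild-type values in 14 panels and below in that of Gadd45g.

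Dusp genes encode phosphatases that switch off MAP kinases, and all 4 members were higher in mean in knockout hearts, 1 of them without overlap. Dusp1, a nuclear phosphatase of the p38, JNK and ERK kinases, read 10.85, 10.99 and 11.21 in wild-type and 11.52, 11.68 and 11.75 in knockout hearts. The means were 11.02 ± 0.18 and 11.65 ± 0.12 (SD, n = 3), a difference of 0.63 ± 0.12 (SE) (limma, adjusted p = 0.256, and 0.0403 without wild-type replicate 3). With any other array left out, the limma adjusted p of Dusp1 was 0.294 to 0.695. Dusp2 differed by 0.29 (95% interval 0.01 to 0.57) and its groups met at 6.78, in wild-type replicate 1 and knockout replicate 1. Dusp6, which acts on ERK in the cytoplasm, differed by 0.17 (-0.23 to 0.56), or 0.00 without knockout replicate 1, and was 0.30 when wild-type replicate 2 was left out. Dusp5, the nuclear ERK phosphatase whose window holds the pair of CArG boxes, differed by 0.04 (-0.17 to 0.25).

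All 4 Klf members, zinc finger factors of vascular and muscle cells, were higher in mean in knockout hearts, with differences from 0.15 to 0.37. Klf4 read 8.62, 8.73 and 8.94 in wild-type and 9.33, 9.10 and 8.96 in knockout hearts. Only 0.02 parted the highest wild-type from the lowest knockout heart, and the difference was 0.37 (limma, adjusted p = 0.459). Klf6 read 9.27, 9.55 and 9.34 in wild-type and 9.72, 9.42 and 9.49 in knockout hearts. Its groups overlapped, with a difference of 0.15 (95% interval -0.13 to 0.43). Klf2, a gene induced by blood flow in endothelium, differed by 0.36 (0.01 to 0.71) and Klf10, induced by TGF-beta, by 0.35 (-0.02 to 0.73), both with overlap. Leaving out knockout replicate 1 lowered the 4 differences to 0.22 for Klf2, 0.27 for Klf4, 0.06 for Klf6 and 0.20 for Klf10.

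The hearts thus ranked differently in different families. Knockout replicate 1 was the lowest knockout heart for 18 of the 38 members, among them all 3 Nr4a genes, Fos, Fosl2, Junb, Atf3, Egr1, Dusp1, Btg2 and Sik1. It was the highest for 15, among them all 4 Klf genes and Dusp6. Family means relative to the 6 hearts were 0.39, 0.00 and 0.07 in the knockout hearts for Klf, against -0.01, 0.87 and 0.57 for Nr4a. Among the knockout hearts, replicate 1 also had the highest mean in 10 of 12 cell type marker lists. Macrophage and monocyte markers were at 0.49 there, against -0.29 and -0.10 in the other knockout hearts, and fibroblast markers at 0.26 against -0.30 and -0.20. Atrial markers (0.34 against 0.05 and 0.06), B cell markers (0.30 against -0.14 and -0.15) and erythrocyte markers (0.49 against 0.28 and 0.30) had the same highest heart. Only 1 of the 3 B cell markers and 3 of the 5 atrial markers lay above the background level. The part of these markers in the orders of the members was not tested. Knockout replicate 2 was the highest knockout heart for 17 members and knockout replicate 3 for 6. In the wild-type group, replicate 3 was the highest heart for 16 members and the lowest for 8. Over the whole list the heart means were -0.20, -0.16 and -0.09 in wild-type and 0.09, 0.21 and 0.15 in knockout hearts.

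**Figure D4:**
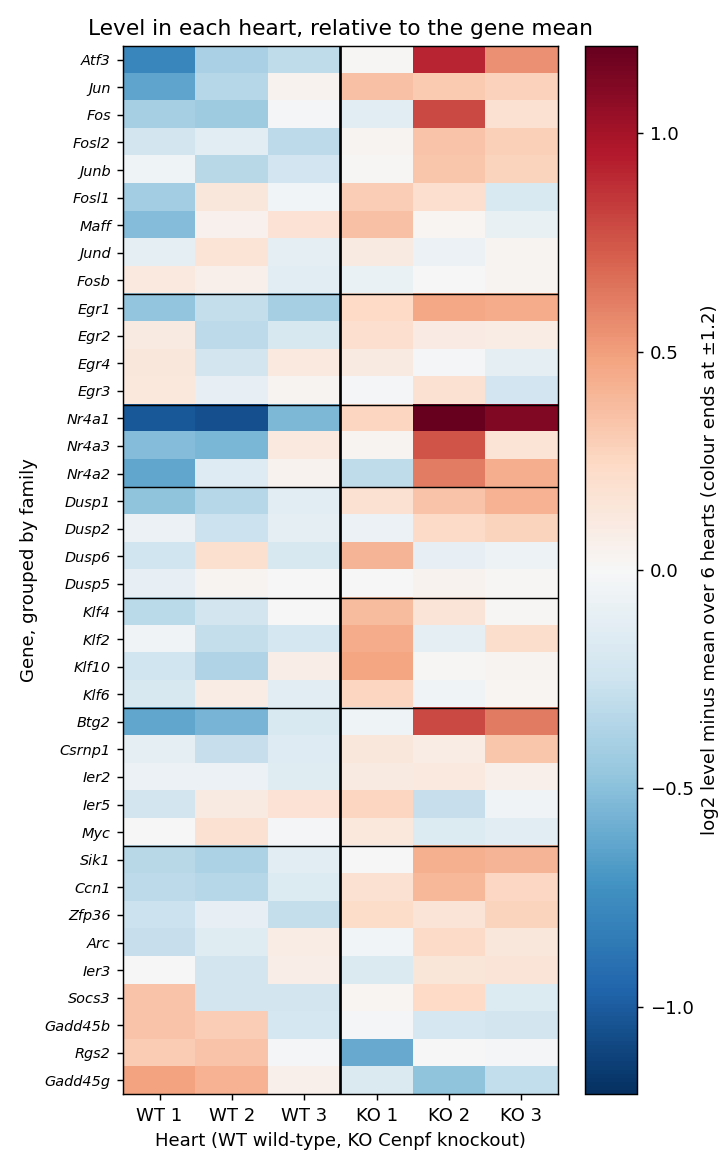
Log2 level of each of the 38 genes (rows, grouped by family) in each heart (columns) relative to the mean of the gene over the 6 hearts; red is above and blue below, and colour ends at 1.2 on either side. Nr4a1, Atf3 and Btg2 are reddest in knockout replicates 2 and 3, and the Klf genes in knockout replicate 1.

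Of 5 other regulators of transcription and growth, Btg2, an antiproliferative protein that binds the deadenylase complex of messenger RNA, differed most. It read 8.94, 9.01 and 9.38 in wild-type and 9.51, 10.36 and 10.19 in knockout hearts, without overlap. The means were 9.11 ± 0.24 and 10.02 ± 0.45 (SD, n = 3), a difference of 0.91 ± 0.22 (SE), or 1.88-fold (limma, adjusted p = 0.368). Csrnp1, a nuclear protein named for its cysteine and serine rich sequence, read 7.59, 7.43 and 7.55 in wild-type and 7.84, 7.80 and 8.04 in knockout hearts. The difference was 0.38 without overlap (adjusted p = 0.391). Ier2 read 6.92, 6.92 and 6.85 in wild-type and 7.10, 7.11 and 7.05 in knockout hearts, so that a small difference of 0.19 still parted the groups (adjusted p = 0.527). Ier5 and Myc overlapped and differed by -0.04 and -0.11, with 95% intervals of -0.42 to 0.33 and -0.38 to 0.15.

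The last group holds 9 members that act in signalling, RNA decay and stress, 6 of them higher and 3 lower in mean. Ccn1, a matrix-associated signalling protein, read 10.01, 9.98 and 10.16 in wild-type and 10.51, 10.72 and 10.57 in knockout hearts. Each group was narrow, and the difference was 0.55 ± 0.10 (SE) (limma, adjusted p = 0.256). Sik1, a kinase that restrains the CREB coactivators, read 9.37, 9.32 and 9.57 in wild-type and 9.71, 10.13 and 10.11 in knockout hearts. Its difference was 0.56 ± 0.14 (SE) (adjusted p = 0.368). Zfp36, which binds AU-rich messages and speeds their decay, read 8.23, 8.39 and 8.20 in wild-type and 8.71, 8.64 and 8.75 in knockout hearts. Its difference was 0.43 ± 0.10 (SE) (adjusted p = 0.368). The groups of Ccn1, Sik1 and Zfp36 did not overlap.

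On the lower side stood Gadd45g, a stress protein that binds the MAP kinase kinase kinase Map3k4. It read 8.60, 8.53 and 8.18 in wild-type and 7.94, 7.63 and 7.82 in knockout hearts, all 3 below the lowest wild-type heart. The means were 8.43 ± 0.22 and 7.80 ± 0.16 (SD, n = 3), a difference of -0.64 ± 0.14 (SE), or 0.644 of the wild-type level (limma, adjusted p = 0.357, and 0.0417 without wild-type replicate 3). With any other array left out, the limma adjusted p was 0.354 to 0.745. Gadd45g ranks 118 of 19938 genes from the lowest difference up. Its relative Gadd45b differed by -0.28 with overlap (95% interval -0.65 to 0.08). The Gadd45b difference was -0.46 without wild-type replicate 3 (limma, adjusted p = 0.117) and -0.19 without wild-type replicate 1. Rgs2, which shortens signalling from Gq-coupled receptors, read 9.73, 9.77 and 9.41 in wild-type and 8.82, 9.42 and 9.40 in knockout hearts. Knockout replicate 2 lay just above wild-type replicate 3, and the difference of -0.42 (adjusted p = 0.500) was -0.23 without knockout replicate 1.

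Arc, known for its role at synapses, Ier3, an inducible survival factor, and Socs3, an inhibitor of cytokine signalling, overlapped and differed by 0.22, 0.09 and 0.07. The 2 Socs3 probes disagreed in sign, since the dimmer one differed by -0.15 (95% interval -0.49 to 0.19), so no direction is given for Socs3.

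Genes that act upstream of the members had median differences close to that of all genes, -0.01. The 7 genes of the serum response factor and its partners had a median difference of 0.04 and differences from -0.20 to 0.12, with Myocd at -0.20 and Mrtfb at 0.12. Of 9 genes of the CREB family and its coactivators, Crem and Creb1 differed by -0.38 and -0.22 without overlap (limma, adjusted p = 0.407 and 0.529). The 19 measured genes of the MAP kinase cascade had a median of -0.04, with Mapk8 at -0.29 without overlap (adjusted p = 0.459) and Map2k6 at -0.48 with overlap. In these 3 lists 0 genes passed the adjusted threshold, against 0.0301% of all genes. At an unadjusted p under 0.05 there were 0, 1 and 1, all lower, against 5.02% of all genes lower and 4.67% higher. The CREB list had a median of 0.06.

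Relatives of the members and other rapidly induced genes were also measured. Among 38 paralogs outside the list 19 were higher and 19 lower, with a median of 0.00, and 0 passed the adjusted threshold. At an unadjusted p under 0.05 there were 5, all higher, against 4.67% of all genes higher and 5.02% lower. Klf11 had means of 8.55 in wild-type and 8.94 in knockout hearts, and Ccn5, a relative of Ccn1, of 8.01 and 8.70 (limma, adjusted p = 0.407 and 0.457). Among 36 other rapidly induced genes 22 were higher and 14 lower, with a median of 0.04, and 0 passed. At an unadjusted p under 0.05, 4 were higher and 4 lower, against the same shares of all genes, 4.67% and 5.02%. Homer1 differed by -0.33 (adjusted p = 0.448), and Ereg, whose means lay below the background level in both groups, is given no difference. The other 13 partners and corepressors, such as Mafk and Nab2, had a median of 0.07.

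Of 23 genes described elsewhere as targets of AP-1, Egr1 or Nr4a factors, 19 were higher and 4 lower in mean, with a median of 0.12. By limma, where 0.0301% of all genes passed, 1 of them did, Mmp3, a matrix protease gene described as an AP-1 target. It read 5.86, 5.93 and 6.18 in wild-type hearts, below the background level, and 8.11, 7.74 and 8.22 in knockout hearts (adjusted p = 0.00672), at least 3.19-fold above that level. Ucp3, the uncoupling protein gene of muscle mitochondria, read 7.10, 7.11 and 8.15 in wild-type and 8.89, 8.92 and 8.88 in knockout hearts (adjusted p = 0.213). Its wild-type replicate 3 lay closest to the knockout hearts, as in the Nr4a genes. Over all genes that array also correlated best with a knockout heart, so this order is not particular to Ucp3 or the Nr4a genes. The lists of this and the preceding paragraphs were chosen with earlier results of these arrays known, so their counts are descriptions.

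Markers of other cardiac cell types were set beside these values; in a bulk sample, fewer cells of a type and less RNA per cell cannot be told apart. Of the 5 erythrocyte markers 2 had a probe of their own, Alas2 and Slc4a1, and both were higher without overlap, by 0.88 and 0.54 (limma, adjusted p = 0.368 and 0.263). The log2 of their summed level was 9.48 to 10.26 in wild-type and 10.56 to 10.84 in knockout hearts, and their part in the higher immediate early values was not tested. The summed levels of ventricular cardiomyocyte markers (16.44 to 16.50 and 16.45 to 16.58), endothelial markers (13.53 to 13.55 and 13.50 to 13.60) and macrophage markers (12.41 to 12.92 and 12.40 to 13.21) overlapped between the groups. So did those of fibroblast markers (13.86 to 14.16 and 13.76 to 14.24), all 7 of which were level or lower in mean in knockout hearts. Relative to the 6 hearts, the mean of the 7 endothelial markers was nevertheless higher without overlap (-0.08 to -0.01 in wild-type, 0.00 to 0.10 in knockout hearts). Of these, 5 were higher and 2 lower, from -0.27 for Emcn to 0.43 for Kdr, an endothelial receptor.

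Of the 5 atrial markers 4 were higher and 1 lower in knockout hearts, with Myl7 higher by 0.53 without overlap (limma, adjusted p = 0.454) and Nppa, the gene of atrial natriuretic peptide, by 0.71 with overlap (adjusted p = 0.485). The mean of all 5 atrial markers, dim ones included, was -0.37 to 0.04 in wild-type and 0.05 to 0.34 in knockout hearts, a narrow gap. Their summed level overlapped (12.07 to 12.78 and 12.57 to 13.36). All 4 adipocyte markers measured, of which Lep lay below the background level, were lower, with a median difference of -0.27. Their mean was -0.07 to 0.34 in wild-type and -0.24 to -0.09 in knockout hearts, and their summed level overlapped (12.13 to 12.37 and 12.11 to 12.25). Smooth muscle and pericyte markers summed to 13.78, 13.68 and 12.86 in wild-type hearts and 12.81 to 13.00 in knockout hearts, of which Acta2 read 12.96, 12.76 and 11.07 in wild-type and 10.66 to 11.20 in knockout hearts. Of the 7 markers of that list 3 were higher and 4 lower, with Myh11 higher by 0.32 without overlap and Pdgfrb and Rgs5 at 0.07 and 0.01. The part of these markers in the values of the members was not tested.

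**Figure D5:**
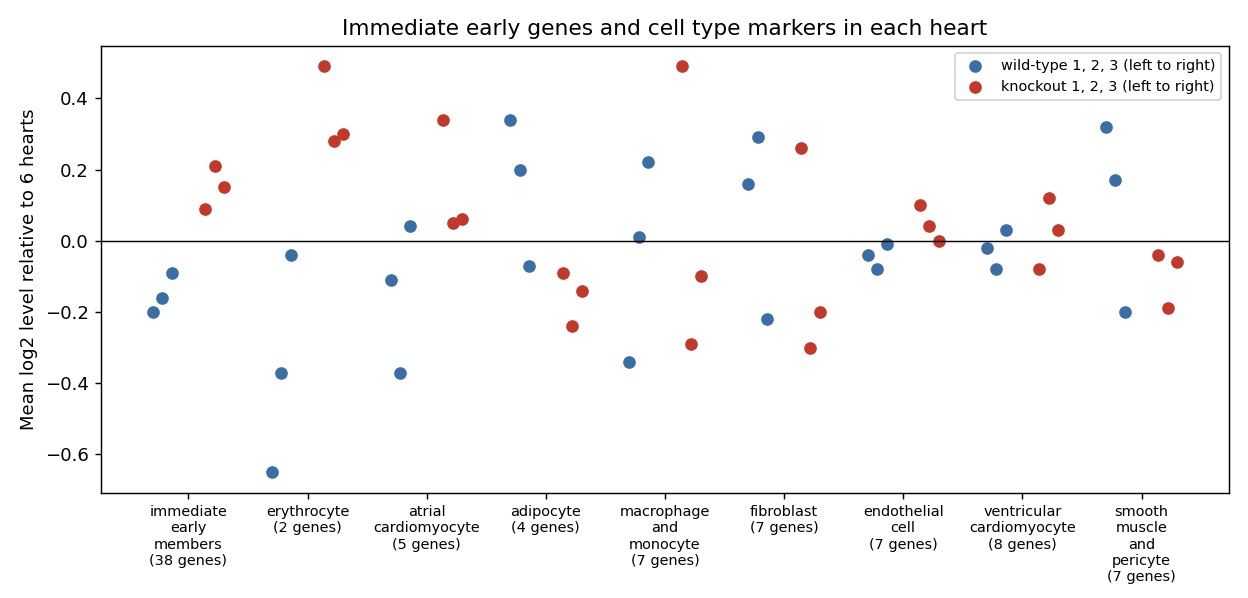
Mean log2 level relative to the 6 hearts (y axis) of the 38 immediate early genes and of 8 cell type marker lists in each heart, wild-type in blue and knockout in red, replicates 1, 2 and 3 from left. The groups are apart for the immediate early genes and, of the lists shown, for the erythrocyte, atrial and endothelial markers (knockout higher) and the adipocyte markers (knockout lower). The atrial mean includes Sln and Bmp10 and the adipocyte mean Lep, all below the background level. Knockout replicate 1 is the highest knockout heart in each list shown except the ventricular markers.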

How the data were processed

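RNA from 6 hearts was measured on 1 array each; each group has 3 hearts, labelled as biological replicates. The deposited log2 values were made by the authors with RMA, and Partek 6.6 is named too, per the submitters' processing notes; neither settings nor a build are stated there. No further normalization was applied. Of 35556 probes, 21789 had exactly 1 gene symbol in the platform annotation, 1621 had several and 12146 were unnamed here; 21698 were found by Entrez ID in the RefSeq gene table and 0 symbols were updated.

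The test was limma 3.58.1 under R 4.3.3 (lmFit, eBayes, two-sided) over the 21789 probes, with Benjamini-Hochberg adjustment over all of them and a threshold of 0.05; 6 probes passed (0.0275%). An array has no read depth; precision is limited by the 3 arrays per group. In 20 simulations over 21789 probes, 200 probes were changed and the noise was normal and independent between probes. There, 2-fold changes were recovered in 75.5% of cases and 4-fold changes in 97.4%, with a mean of 8.2 false calls. These shares depend on the number of changed probes and do not give the power for the members. In the data 6 probes passed, and Atf3 at 1.98-fold and Nr4a1 at 3.34-fold did not.

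The members and lists were chosen with earlier results of these data known. Values of all hearts are given for members above the background level whose groups do not overlap and for the brightest member of each family, and of each related list the 2 genes with the smallest p are named. Fos, Nr4a2, Nr4a3, Rgs2, the single marker genes and the values of Ucp3 by heart were added after they were seen, and Mmp3 and Nab2 also fall under the rule. Alternatives were 3 scalings, a filter on dim probes, the mean of the probes of a gene, all probes as the tested family, leaving out each array, a block for the replicate number, and another variance model. Figures used matplotlib 3.10.9.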

Additional observations from a re-analysis of the deposited data

How the results depend on the processing

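Differences kept their direction and their side of the threshold in 509 of 532 comparisons of a member with an alternative. This count is high in part by construction. The variance model, the replicate block, the filter and the test of all probes leave the fitted difference of a member as it was. The mean of the probes can change only Socs3. As 0 members passed in the main fit, the same side of the threshold means that a member still did not pass. The count of members past the adjusted threshold, 0, became 1 with the trend and robust variance model (Egr1, adjusted p = 0.0355) and 1 with the replicate block (Nr4a1, adjusted p = 0.0474), and ranged from 0 to 5 with 1 array left out. Members lower without overlap were 2 with quantile and 2 with cyclic loess normalization, against 6.25% and 6.56% of all genes. With 1 array left out they were 1 to 4, against 11.3% to 17.9% of all genes. Over all probes, 1 was called with all probes tested, 22 with the trend model, 11 with the replicate block, and 1 to 293 with 1 array left out, the highest without wild-type replicate 3. Cenpf did not pass with all probes tested (-2.07, adjusted p = 0.281), and its difference ranged from -2.27 to -1.92 with 1 array left out. The sign of Socs3 turned with the mean of its probes (-0.04). With 1 array left out the sign turned in Socs3 (-0.03 to 0.26), Ier5 (-0.18 to 0.08), Egr3 (-0.15 to 0.06), Egr4 (-0.14 to 0.04), Fosb (-0.10 to 0.02), Maff (-0.02 to 0.33) and Jund (0.00 to 0.14, just below zero at the lower end). The cause was not tested. Same-numbered arrays did not deviate together (correlations of -0.11, -0.16 and 0.00, and 0 of 6 arrays closest to their own number), so the numbers were not taken as pairs.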
